A study of Mus musculus with 8 samples.

Results

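The enzymes that break glucose down to pyruvate and lactate, and those that feed pyruvate into the tricarboxylic acid (TCA) cycle and run it, were followed in mouse hippocampal neurons in which the deadenylase CNOT7 was knocked down. The members were the 34 genes of a fixed list, matched by symbol in the deposited gene table, and all 34 were found among its 23845 entries. They comprised 16 cytosolic glycolytic enzymes (lactate dehydrogenase included), 17 mitochondrial enzymes (pyruvate dehydrogenase, pyruvate carboxylase and the TCA cycle) and Mdh1, the cytosolic malate dehydrogenase, which was kept apart from both sets. All 34 passed the filter used for testing, a mean of at least 1 TPM (transcripts per 1000000, corrected for transcript length) over the 8 libraries, as did 13681 genes in all.

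Primary hippocampal neurons were prepared from mouse embryos at embryonic day 19. They were infected at 13 to 15 days in vitro with a lentivirus expressing a CNOT7-targeting or, in the controls, a scrambled hairpin, and were harvested at 17 to 19 days in vitro. The labels name no strain and do not say how many hairpins were used, and all neurons of the study, the scrambled controls included, were infected. Polyadenylated RNA was bound to poly(U) agarose and eluted at 75 °C, either directly (total poly(A) RNA) or after a wash at 50 °C that, per the labels, took away tails shorter than 50 nucleotides (long tails). The 4 groups, scrambled total, knockdown total, scrambled long tails and knockdown long tails, held 2 libraries each. Whether those came from separate cultures is not stated, so p-values measure only the spread between these libraries, which may be technical.

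As background, glycolysis turns glucose into pyruvate in the cytosol, and pyruvate either becomes lactate or enters mitochondria. There the pyruvate dehydrogenase complex converts it to acetyl-CoA, which citrate synthase passes into the TCA cycle, the main source of electrons for the respiratory chain. Neurons depend heavily on that oxidative route, and much of brain lactate production is assigned to astrocytes. CNOT7 is a catalytic subunit of the CCR4-NOT complex, which shortens poly(A) tails. CPEB proteins, which bind the cytoplasmic polyadenylation element in some 3′ UTRs, control tail length in neurons.

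Across the series, Cnot7 itself, given here to check the labels, was at 36 to 42 TPM in scrambled total and 12 to 16 TPM in knockdown total, and at 28 to 31 TPM and 9 to 11 TPM in the corresponding long tails. The ribosomal precursor Rn45s varied between libraries, and its lowest and highest shares of TPM, 2.90% and 18.6%, were those of the 2 knockdown long-tail libraries (numbers 2 and 1), which thus differed strongly in composition. Of 13 neuronal markers, all were measured, with summed levels of 6016 to 8568 TPM. The summed level of 10 astrocyte markers was 5915 to 7073 TPM in scrambled and 4679 to 6798 TPM in knockdown total, and 5146 to 5512 and 4101 to 5234 TPM in long tails, so these cultures also held glia. The 11 oligodendrocyte lineage markers summed to 1833 to 1988 TPM in scrambled and 1245 to 1258 TPM in knockdown total, and to 1591 to 1997 and 1069 to 1358 TPM in long tails. The microglial markers Aif1, Cx3cr1, Tmem119 and Itgam and the endothelial markers Pecam1 and Cldn5 were listed at 0 in every library. Fewer cells of a type and less RNA per cell cannot be told apart in such bulk samples, and the part of the glial difference in the results below was not tested.

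Glycolytic mRNAs were far more abundant than mitochondrial ones. The 16 glycolytic enzymes summed to 12600 to 17712 TPM, or 1.26% to 1.77% of all TPM, and the 17 mitochondrial enzymes to 2471 to 3097 TPM, or 0.247% to 0.310%. The ratio of the sums was 5.78 and 5.09 in scrambled total libraries 1 and 2, 5.53 and 4.87 in knockdown total, 5.96 and 4.99 in scrambled long tails, and 5.72 and 5.72 in knockdown long tails. The knockdown and scrambled values overlapped in total RNA and in long tails. Long tails and total RNA overlapped in scrambled neurons, whereas both long-tail libraries of knockdown neurons lay above both total libraries. TPM is corrected for transcript length, so these levels may be set against each other between genes, with a limit. The long-tail level relative to total RNA fell with mRNA length (below), so ratios between mRNAs of different length depend on the fraction. Whether the correction removes every effect of length was not tested.

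Gapdh, which carries out the oxidative step of glycolysis, was the most abundant member and held 31.9% to 36.6% of the glycolytic sum. Its level was 5834 and 4818 TPM in scrambled total, 5756 and 4015 in knockdown total, 5516 and 4957 in scrambled long tails, and 5143 and 6243 in knockdown long tails. Aldoa, the aldolase that splits the 6-carbon sugar, came next, at 2336 and 2182, 2436 and 1864, 2166 and 2288, and 2108 and 2685 TPM in the same order. For both genes the groups overlapped in every comparison. The mitochondrial set was led by Mdh2, the malate dehydrogenase of the cycle, at 612 and 576, 644 and 505, 605 and 661, and 619 and 752 TPM. Cs, citrate synthase, followed at 310 and 304, 302 and 264, 226 and 269, and 227 and 229 TPM. Its total libraries from scrambled neurons lay above all 4 long-tail libraries. Mdh1 ran from 371 to 519 TPM, so it stood between Mdh2 and most of the mitochondrial set. The 2 genes with the lowest level were Suclg2, the GTP-forming subunit of succinyl-CoA ligase, at 25 to 48 TPM, and Hk2 at 2 to 6 TPM. Aldoa, Gapdh, Pgk1, Pgam1 and Ldha each have 2 pseudogenes that carry the gene's own symbol in the annotation. Reads may thus have been split between near-identical copies, and their levels are less certain. Pseudogenes under other names were not counted, so the same limit may hold for other members.

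**Figure D1:**
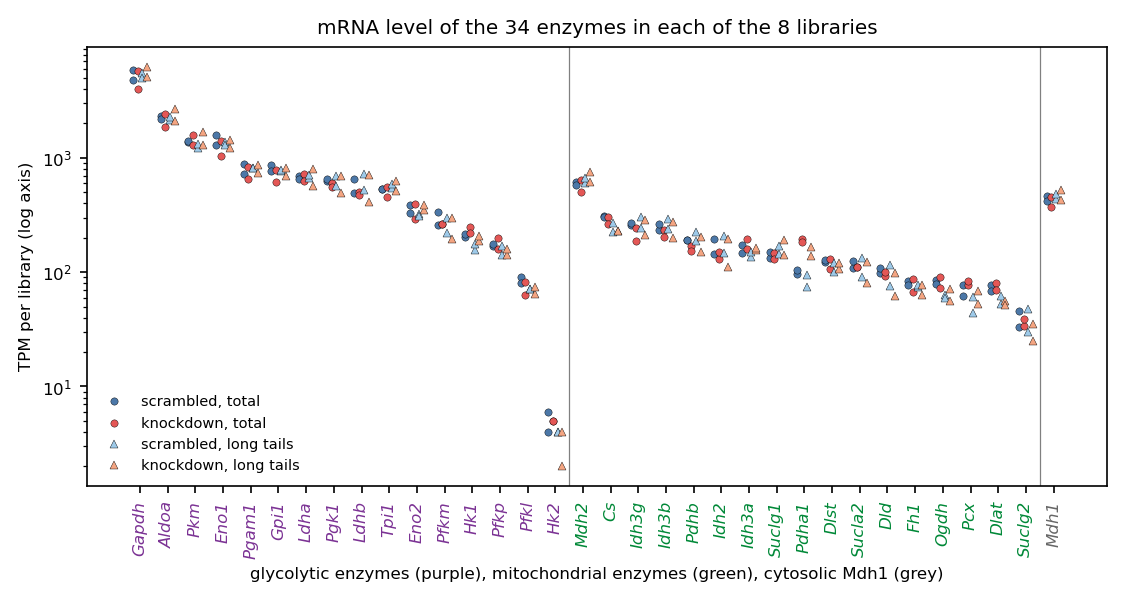
Level of each of the 34 enzymes in TPM (log axis), with 1 point per library, circles for total poly(A) RNA and triangles for long tails, ordered by mean level within the glycolytic, mitochondrial and Mdh1 groups. Gapdh, at 4015 to 6243 TPM, and Hk2, at 2 to 6 TPM, bound the range, and Pdha1 is the member whose knockdown total libraries lie far above the scrambled ones.

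Pdha1 was the member that differed most between knockdown and scrambled neurons. It encodes the E1 alpha subunit of the pyruvate dehydrogenase complex, the subunit whose phosphorylation switches the complex off, and lies on chrX:160122209-160138413 on the minus strand (mm10, GENCODE M21). Its level was 96 and 105 TPM in scrambled total libraries and 196 and 185 TPM in knockdown total libraries. In long tails it was 74 and 94 TPM in scrambled and 139 and 166 TPM in knockdown neurons. In both fractions every knockdown library was above every scrambled library. The difference, knockdown minus scrambled on the log2(TPM + 1) scale, was 0.92 (SE 0.158, a 1.89-fold difference) in total RNA and 0.86 (SE 0.158, 1.81-fold) in long tails. With limma over all 13681 genes and Benjamini-Hochberg adjustment, the adjusted p was 0.303 in total RNA and 0.328 in long tails, so neither passed 0.05, although the unadjusted p was 0.00145 and 0.00201.

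The authors' deposited table, made with a count model, called Pdha1 in both fractions. Its log2 fold change in the authors' deposited table was 0.90 with an adjusted p of 4.5e-05 for total RNA and, for long tails, 0.85 with an adjusted p of 0.000161, after the sign was turned so that positive means higher in knockdown. It was the only member in either table, 1 of 34, while the 104 entries for total RNA and the 97 for long tails came to 0.76% and 0.709% of the genes tested here. In the limma model no member and no gene of the 13681 (0%) was called in any of the 5 comparisons of this report. Cnot7, the knocked-down gene, was thus not called either, at 42 and 36 TPM in scrambled total and 12 and 16 TPM in knockdown total. The lack of a call in this model therefore does not show that a gene was unchanged. At an unadjusted p under 0.05, Pdha1 was the single member in either knockdown comparison, where 2.05% of all genes were higher and 4.3% lower in total RNA, and 2.25% and 6.47% in long tails. Another setting, chosen after seeing the data, tested only the 6810 genes of at least 20 TPM and added a replicate block. It called 118 of these genes in total RNA and 297 in long tails. Pdha1 was among them in total RNA (adjusted p = 0.00181) and in long tails (adjusted p = 0.00411) by limma. Its adjusted p ranged over the alternatives from that value to 0.795 in total RNA and to 0.731 in long tails, and its difference from 0.85 to 0.98 and from 0.69 to 1.03.

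The other subunits of the same complex on the member list did not share that difference. Pdhx, a component outside that list, had a log2 difference of 0.06 in total RNA and −0.04 in long tails. Pdhb, the E1 beta subunit that pairs with Pdha1 in the E1 enzyme, was at 193 and 191 TPM in scrambled total, 168 and 153 in knockdown total, 189 and 226 in scrambled long tails, and 150 and 205 in knockdown long tails. Its 2 knockdown total libraries lay below both scrambled ones, while the long-tail groups overlapped. Dlat, the E2 acetyltransferase, was at 77 and 68, 80 and 70, 53 and 62, and 56 and 52 TPM in the same order. Dld, the E3 dehydrogenase shared with the 2-oxoglutarate dehydrogenase complex, was at 99 and 109, 92 and 101, 75 and 115, and 62 and 99 TPM. The knockdown differences, as log2, were −0.26 in total RNA and −0.24 in long tails for Pdhb, 0.05 and −0.09 for Dlat, and −0.11 and −0.24 for Dld, with limma adjusted p-values of 0.696 and above for Pdhb and Dlat.

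The ratio of Pdha1 to Pdhb mRNA was 0.497 and 0.550 in scrambled total libraries and 1.17 and 1.21 in knockdown total libraries. In long tails it was 0.392 and 0.416 in scrambled and 0.927 and 0.810 in knockdown neurons. Every scrambled library held less Pdha1 than Pdhb mRNA, whereas the knockdown total libraries held more Pdha1 than Pdhb. The ratio of Pcx, the pyruvate carboxylase that makes oxaloacetate from the same pyruvate, to Pdha1 was 0.646 and 0.733 in scrambled total and 0.393 and 0.454 in knockdown total. In long tails that ratio was 0.595 and 0.649 against 0.381 and 0.410. Neither ratio was chosen independently of Pdha1, so they describe its difference and add no test to it.

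**Figure D2:**
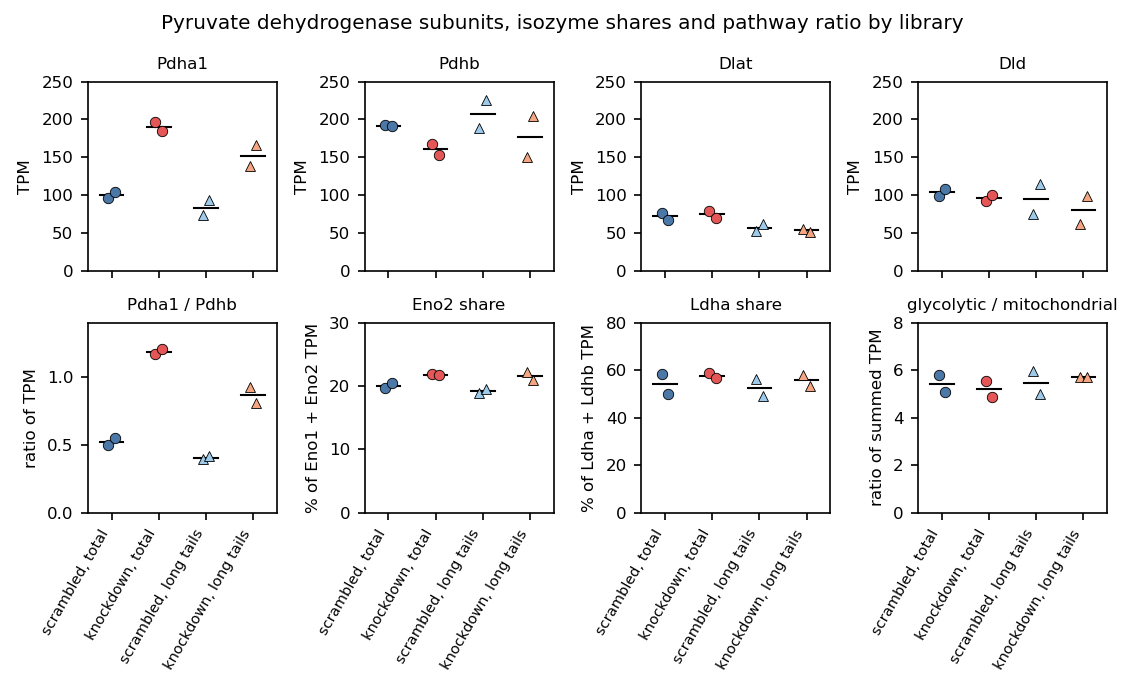
Upper row, TPM per library of the 4 pyruvate dehydrogenase subunits among the members. Lower row, the Pdha1 to Pdhb ratio, Eno2 share of enolase mRNA, Ldha share of lactate dehydrogenase mRNA, and glycolytic to mitochondrial ratio. Points are libraries and bars are means of 2 libraries. Pdha1 was 96 to 105 TPM in scrambled total and 185 to 196 TPM in knockdown total, and the Pdha1 to Pdhb ratio separated the knockdown from the scrambled libraries in both fractions, whereas the pathway ratio did not.

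Because CNOT7 acts on tails and CPEB proteins bind near the 3′ end, the 3′ ends of the members were searched for the cytoplasmic polyadenylation element in its common forms TTTTAT and TTTTAAT. The sense strand of the longest-coding GENCODE M21 transcript was read. The last 100 bases of the 3′ UTR held TTTTAT in 0 of 16 glycolytic mRNAs and in 2 of 17 mitochondrial mRNAs, against 14.8% of 11838 tested genes with a 3′ UTR of that length. TTTTAAT was there in 1 member, Dld, against 5.58% of those genes. The polyadenylation signal AATAAA was there in 20 of 34 members (58.8%), against 65.7%. The 3 members with an element in that window are shown, and Pdha1 because it is the member that differed. Capitals mark the element, and each stretch is 30 bases in mm10, 5′ to 3′.
Cs, chr10:128362450-128362479, plus strand: taaaaataataaatgtTTTTATtaacaatg
Fh1, chr1:175600374-175600403, minus strand: gcaaaataaagtttaTTTTATaaaagaaaa
Dld, chr12:31331291-31331320, minus strand: cttagtaatgtTTTTAATcttagtaaatgg
Pdha1, chrX:160122324-160122353, minus strand: attccaattttgTTTTATtgtatagtaatg
The element began 14 bases before the annotated end in Cs, 15 in Fh1, 33 in Dld and 133 in Pdha1, so that of Pdha1 lay outside the window searched. Also outside it, TTTTAT began nearer the end than in Pdha1 in Pfkp (110 bases), Ldha (118) and Idh3a (121). Such a site was thus not particular to Pdha1. The knockdown differences of Pfkp, Ldha and Idh3a were 0.05, −0.01 and 0.15 in total RNA and −0.04, −0.02 and 0.15 in long tails. Any part of the site in a knockdown difference was not tested. The 3 members with an element in the window had knockdown differences of −0.12 (Cs), −0.07 (Fh1) and −0.11 (Dld) in total RNA and of −0.11, −0.11 and −0.24 in long tails. None of these was beyond its spread, with limma 95% intervals that spanned 0. In the Cs and Fh1 stretches AATAAA stands before the element. Dld held no AATAAA in its last 100 bases, and Pdha1 held none in its whole 3′ UTR. Distances are to annotated ends, and whether these neurons used those ends was not tested. A match is a description of letters and not a bound site.

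Among the glycolytic enzymes no member was called after knockdown, and the differences were small. In total RNA 4 of 16 were above 0 and 12 below, with a median of −0.10 against −0.07 for all genes tested and a range of −0.25 to 0.16. In long tails 5 were above 0 and 11 below, with a median of −0.02 against −0.10 for all genes. Over 12620 tested genes this long-tail difference fell with annotated mRNA length (Spearman's rank correlation −0.40). Within the glycolytic set the correlation was −0.18 and within the mitochondrial set 0.26. Glycolytic mRNAs had a median of 2229.5 bases, against 3048 over those genes. The part of length in the distance from the all-gene median was not tested. The mitochondrial set had 4 of 17 above 0 in total RNA, with a median of −0.07, and 7 of 17 above 0 in long tails, with a median of −0.11. The glycolytic median minus the mitochondrial median was −0.03 in total RNA and 0.09 in long tails. These counts turned with the scaling. In long tails 14 of 16 glycolytic and 12 of 17 mitochondrial enzymes were above 0 under median centring, and 4 and 7 under quantile normalization; in total RNA the counts were 5 and 7, and 7 and 5. The distance between the medians was not tested, and leaving out single libraries moved it to either side of 0 in total RNA.

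Groups of libraries that did not overlap were counted as a second description. In total RNA 2 of 34 members had both knockdown libraries above both scrambled ones, where 8.68% of all genes did, and 5 had both below (Idh3g, Pdhb, Idh3b, Pgk1 and Cs), where 20.1% did. In long tails 4 members were separated upward (Pdha1, Hk1, Eno2 and Idh3a), against 8.91% of genes, and 0 downward, against 17.1%. Pdha1 and Hk1 were separated upward in both fractions, as were 2.71% of all genes, and no member was separated downward in both, against 9.49%. The upward count thus stood near the background and the downward counts at or under it.

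**Figure D3:**
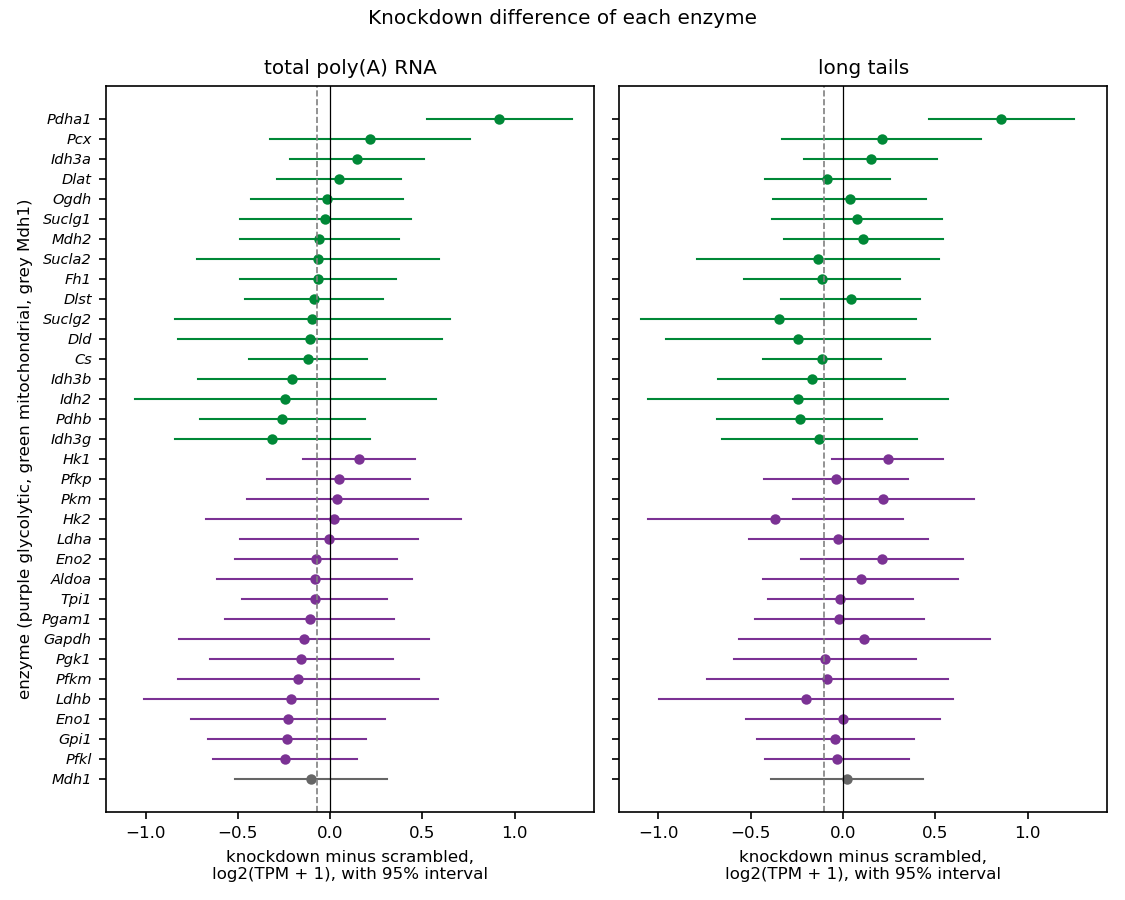
Knockdown minus scrambled difference of each member on the log2(TPM + 1) scale with its 95% limma interval, in total RNA (left) and long tails (right); the dashed line is the median of all 13681 genes. Pdha1, at 0.92 and 0.86, is the single member whose interval does not reach 0.

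Hexokinases phosphorylate glucose as it enters the cell. Hk1, the main brain form, which docks on the mitochondrial outer membrane, was at 205 and 215 TPM in scrambled total, 249 and 220 in knockdown total, 157 and 177 in scrambled long tails, and 188 and 207 in knockdown long tails. Its knockdown libraries lay above the scrambled ones in both fractions, by 0.16 in total RNA and 0.24 in long tails on the log2 scale (SE 0.121 each; limma adjusted p = 0.956 and 0.622). Hk2, the form induced in growing cells, was at 6 and 4, 5 and 5, 4 and 4, and 4 and 2 TPM in the same order. At such whole-number values a step of 1 TPM is a large fraction of the level, and its log2 difference in long tails of −0.37 (SE 0.278) rests on a single library at 2 TPM. Hk2 made up 0.957% to 2.84% of the mRNA of the pair.

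Phosphofructokinase, the committed step of glycolysis, has 3 isozymes that form mixed tetramers. Pfkm, the muscle form, held the largest share, 48.4% to 56.7% of their summed TPM. It was at 260 and 338 TPM in scrambled total, 263 and 263 in knockdown total, 220 and 298 in scrambled long tails, and 196 and 297 in knockdown long tails. Pfkp, the platelet form, was at 169 and 177, 198 and 161, 140 and 170, and 142 and 159 TPM. Pfkl, the liver form, was at 90 and 81, 82 and 63, 71 and 71, and 65 and 74 TPM. The order Pfkm, Pfkp, Pfkl held in all 8 libraries, and knockdown and scrambled values of each isozyme overlapped in both fractions. Pfkl had the largest negative difference of the glycolytic set in total RNA, −0.25 (SE 0.156, limma adjusted p = 0.924).

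Enolase converts 2-phosphoglycerate to phosphoenolpyruvate, and Eno2 is its neuronal form, also known as neuron-specific enolase. Eno1, the form of most tissues, was at 1574 and 1287 TPM in scrambled total, 1414 and 1044 in knockdown total, 1387 and 1284 in scrambled long tails, and 1232 and 1444 in knockdown long tails. Eno2 was at 384 and 331, 395 and 290, 322 and 313, and 352 and 384 TPM. The share of Eno2 in the pair was 19.6% and 20.5% in scrambled total against 21.8% and 21.7% in knockdown total, and 18.8% and 19.6% against 22.2% and 21.0% in long tails. Every knockdown library had a larger Eno2 share than every scrambled library, although neither gene alone separated the groups in total RNA. Summed neuronal markers ran from 6735 to 8068 TPM in scrambled and 6825 to 8568 TPM in knockdown total, and from 6016 to 6072 and 6728 to 6750 TPM in long tails, while the oligodendrocyte sum was lower in the knockdown libraries of both fractions and the astrocyte sums overlapped; the part of cell composition in the Eno2 share was not tested. With 2 libraries against 2, an exact permutation test cannot give a p below 0.333, so none was run on the share.

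Lactate dehydrogenase interconverts pyruvate and lactate. Ldha, the subunit that dominates in tissues that make lactate, was at 690 and 658 TPM in scrambled total, 719 and 625 in knockdown total, 669 and 705 in scrambled long tails, and 566 and 805 in knockdown long tails. Ldhb, the subunit that dominates in oxidative tissues, was at 490 and 660, 505 and 477, 523 and 728, and 408 and 706 TPM. The Ldha share of the pair ran from 49.2% to 58.7%, and knockdown and scrambled libraries overlapped in long tails and in total RNA. In each fraction the scrambled libraries themselves differed by more than the group means did.

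The remaining glycolytic enzymes, Gpi1, Tpi1, Pgk1, Pgam1 and Pkm, were at 454 to 1699 TPM. Pkm, pyruvate kinase, which makes pyruvate, ran from 1214 to 1699 TPM. Tpi1, triose phosphate isomerase, was at 529 and 531 TPM in scrambled total, 551 and 454 in knockdown total, 549 and 591 in scrambled long tails, and 509 and 624 in knockdown long tails. Their knockdown differences ran from −0.23 (Gpi1) to 0.04 (Pkm) in total RNA, and none was called.

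Of the TCA cycle enzymes, isocitrate dehydrogenase 3, the NAD-dependent enzyme that sets the pace of the cycle, is built of a catalytic alpha subunit and the beta and gamma subunits. Idh3g, the gamma subunit, was at 257 and 272 TPM in scrambled total, 242 and 187 in knockdown total, 244 and 301 in scrambled long tails, and 213 and 288 in knockdown long tails. It had the largest negative knockdown difference of all members in total RNA, −0.31 (SE 0.212, limma adjusted p = 0.927), and overlapped in long tails. Idh3b was at −0.21 in total RNA, whereas Idh3a, the catalytic subunit, was at 0.15 in both fractions. The ratio of Idh3a to the mean of Idh3b and Idh3g was 0.702 and 0.547 in scrambled total against 0.821 and 0.823 in knockdown total, and 0.564 and 0.507 against 0.754 and 0.575 in long tails. The knockdown libraries were above the scrambled ones in both fractions, each time by a margin smaller than the gap between the scrambled libraries. This ratio was formed after the values were seen, so it is a description.

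Suclg1, the shared alpha subunit of succinyl-CoA ligase, was at 133 and 150 TPM in scrambled total, 148 and 130 in knockdown total, 145 and 170 in scrambled long tails, and 142 and 193 in knockdown long tails. Its partners Sucla2 and Suclg2, which set whether the enzyme forms ATP or GTP, stood in a ratio of Suclg2 to Sucla2 of 0.287 to 0.365. Ogdh, the E1 subunit of the 2-oxoglutarate dehydrogenase complex, was at 86 and 79, 91 and 73, 63 and 60, and 71 and 56 TPM. Knockdown and scrambled values of Ogdh and Suclg1 overlapped in both fractions. Idh2, Dlst, Fh1, Pcx and Idh3b, the other members of the set, were at 44 to 291 TPM, and none of them was called. The ratio of Mdh2 to Mdh1, the mitochondrial and cytosolic enzymes of the malate-aspartate shuttle, was 1.32 and 1.37 in scrambled total, 1.42 and 1.36 in knockdown total, 1.37 and 1.37 in scrambled long tails, and 1.46 and 1.45 in knockdown long tails.

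A list of 56 further genes of these pathways, among them glucose and monocarboxylate transporters, other isozymes, the pyruvate carrier, pyruvate dehydrogenase kinases and phosphatases and succinate dehydrogenase, was read beside the members. Of these, 47 passed the filter and 0 were called in any comparison or held in the authors' deposited table of either fraction. At an unadjusted p under 0.05 by limma, 1 (Bpgm) was higher and 0 lower after knockdown in total RNA. Of all genes 2.05% were higher and 4.3% lower there. In long tails 1 (Bpgm) was higher and 2 (Slc16a1 and Slc2a3) lower, against 2.25% and 6.47% of all genes. These counts were near or under the shares of all genes. The median knockdown difference of the 47 genes was −0.08 in total RNA and −0.08 in long tails. Bpgm, which makes 2,3-bisphosphoglycerate, had the smallest p, at 33 and 34 TPM in scrambled total, 54 and 43 in knockdown total, 38 and 38 in scrambled long tails, and 46 and 60 in knockdown long tails. Its log2 difference was 0.51 in total RNA and 0.46 in long tails. Its knockdown libraries lay above the scrambled ones in both fractions, as did those of 2.71% of all genes. Slc2a3, the neuronal glucose transporter GLUT3, was at 88 and 94 TPM against 72 and 77 TPM in total RNA, and at 62 and 73 against 54 and 55 TPM in long tails, a log2 difference of −0.29 and −0.30. Slc16a1, the monocarboxylate transporter MCT1, was at 64 and 90 against 53 and 54 TPM in long tails. Limma adjusted p-values for these 3 genes were 0.556 or higher.

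The kinases and phosphatases that act on Pdha1 protein were at low to moderate levels. Pdk2, the most abundant of the kinases, was at 91 to 123 TPM, and Pdp1, the main phosphatase, at 39 to 93 TPM. Their scrambled and knockdown libraries overlapped in both fractions. Pdk1 was at 22 and 18 TPM in scrambled total and at 26 and 25 in knockdown total. These 3 genes were chosen after their values were seen, because they bear on the regulation of the complex, and Pdk1 was not called (limma adjusted p = 0.924 in total RNA).

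The long-tail fraction was then set against total RNA within each kind of neuron. Since TPM is a share of a library, a positive value here means a larger share of the long-tail library and says nothing of how long a tail is. In scrambled neurons the glycolytic median was −0.08 and the mitochondrial median −0.09, against −0.22 for all genes tested, and 26 of 34 members lay above the all-gene median. In knockdown neurons the glycolytic median was 0.08 and the mitochondrial median −0.16, against −0.22 for all genes, with 24 of 34 members above it. The distance between the pathways was thus 0.01 in scrambled and 0.23 in knockdown neurons, and under quantile normalization it was −0.09 and 0.02. The zero of this scale depends on the scaling: median centring moved the all-gene median to 0.02 in scrambled and 0.11 in knockdown neurons, and quantile normalization moved it to −0.02 and 0.03. Under quantile normalization 17 and 11 of 34 members were above the all-gene median, so their place above it in the deposited TPM is not a direction that held under every scaling.

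No member was called in these comparisons. In scrambled neurons 1 member, Tpi1, had both long-tail libraries above both total libraries, where 4.69% of all genes did, and 10 members had both below, where 39.6% did. In knockdown neurons 0 members were separated upward, against 4.04% of genes, and 8 downward, against 40%. At an unadjusted p under 0.05, Hk1 (−0.33) and Ogdh (−0.42) were lower in long tails of scrambled neurons by limma, with adjusted p-values of 0.377 and 0.378, where 12.9% of all genes were lower at that p and 0.263% higher. In knockdown neurons that held for Dlat (−0.46, adjusted p = 0.142 by limma), where 25.1% of genes were lower and 0.921% higher. The highest in scrambled neurons were Suclg1 at 0.15 and Ldhb at 0.12, both short mRNAs. Pdha1 was at −0.26 in scrambled and −0.32 in knockdown neurons, close to the all-gene median in each. Among the 47 related genes tested, Slc2a3 (−0.43), Acly (−0.55) and Pfkfb2 (−0.52) had the smallest p in scrambled neurons, and Pfkfb2 (−0.72), Acly (−0.67) and Pfkfb4 (−0.45) in knockdown neurons. All of these were lower in long tails, and none was called. Pfkfb4 was listed at 3 to 5 TPM, where a step of 1 TPM is a large fraction of the level.

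**Figure D4:**
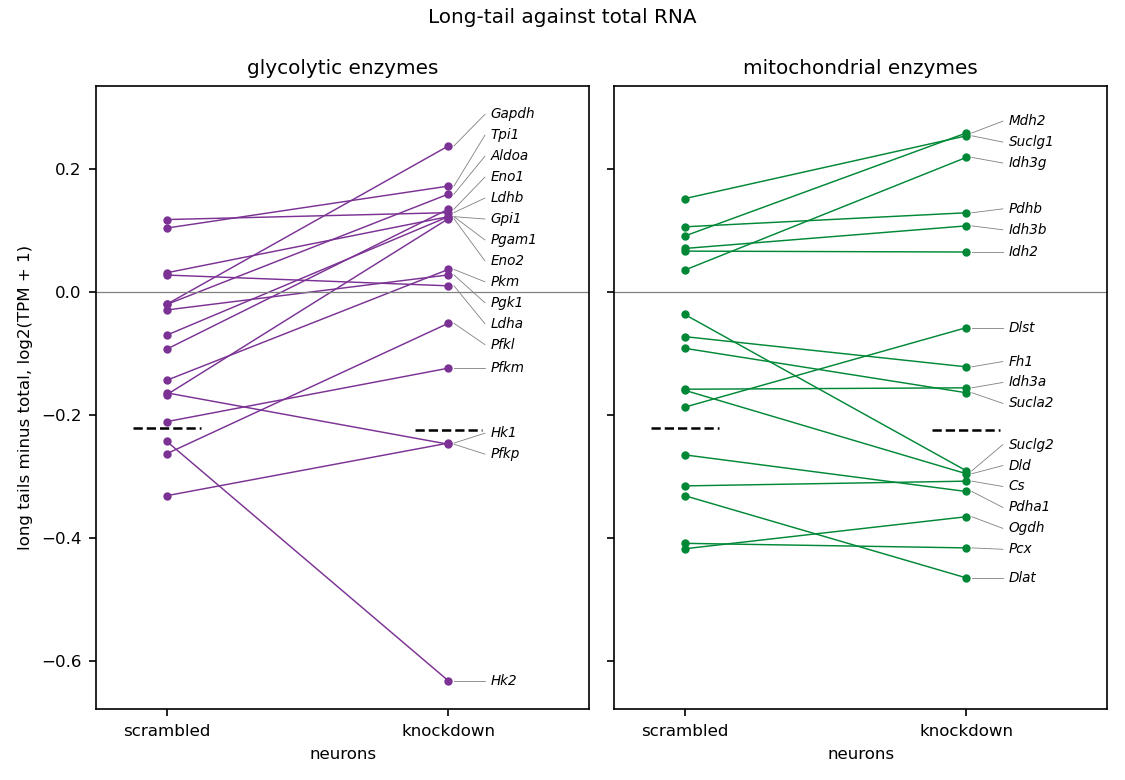
Long-tail minus total difference of each member on the log2(TPM + 1) scale in scrambled and knockdown neurons, with glycolytic enzymes left, mitochondrial enzymes right, and the dashed bars at the all-gene medians of −0.22. Of the 17 mitochondrial enzymes, 6 are above 0 and 11 below in both kinds of neuron, and 4 of the 16 glycolytic enzymes are above 0 in scrambled and 11 in knockdown neurons.

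The split within each pathway followed the length of the mRNA. The relation was noticed after the values were seen, and it is given as a description. The annotated length of the longest-coding transcript ran from 1273 bases in Gapdh to 5513 in Hk2. Its median was 2229.5 bases in the glycolytic set, 2580 in the mitochondrial set and 3048 over the 12620 tested genes with such a transcript. In scrambled neurons the 7 members of at most 1600 bases had a median long-tail minus total difference of 0.09, the 15 members of 1601 to 2800 bases −0.07, and the 12 members from 2801 bases on −0.26. In knockdown neurons the same classes had medians of 0.22, 0.04 and −0.30. All 12 of the longest class were below 0 in scrambled neurons and 11 of 12 in knockdown neurons, the exception being Gpi1 at 0.12. Spearman's rank correlation between length and the difference over the 34 members was −0.87 in scrambled and −0.85 in knockdown neurons.

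The relation was present in each pathway and over all genes tested, and no difference between them was tested. The rank correlation was −0.87 in the glycolytic and −0.87 in the mitochondrial set in scrambled neurons, and −0.84 and −0.91 in knockdown neurons. Over 12620 tested genes it was −0.72 in scrambled and −0.75 in knockdown neurons, with class medians of 0.11, −0.11 and −0.36, and of 0.21, −0.05 and −0.45. With coding length in place of mRNA length the rank correlation over the members was −0.82 and −0.72, and with 3′ UTR length −0.64 and −0.74. Taking any 1 long-tail library with any 1 total library of the same neurons, which gives 4 pairings, it ran from −0.85 to −0.51 in scrambled and from −0.87 to −0.48 in knockdown neurons. Without knockdown long-tail library 2 it was −0.55. The points share libraries, and coding and 3′ UTR lengths are parts of the same mRNA, so no p is given. Which transcript forms these neurons used was not analysed here, and the part of RNA integrity, library preparation or tail length in the relation was not tested.

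Pairs of enzymes that work side by side differed in this way. Suclg1 has an mRNA of 1519 bases and was at 0.15 and 0.25 in scrambled and knockdown neurons, whereas its partners Sucla2 (2229 bases) and Suclg2 (3367 bases) were at −0.09 and −0.16, and at −0.04 and −0.29. Pdhb, of 1513 bases, was at 0.11 and 0.13, while Pdha1, of 2848 bases, was at −0.26 and −0.32, and Dlat, of 4035 bases, at −0.33 and −0.46. Mdh1, of 2122 bases, was at 0.06 and 0.19, above Eno1 and Sucla2, the members next to it in length. Hk2 had the lowest value in knockdown neurons, −0.63, which rests on levels of 2 to 5 TPM.

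**Figure D5:**
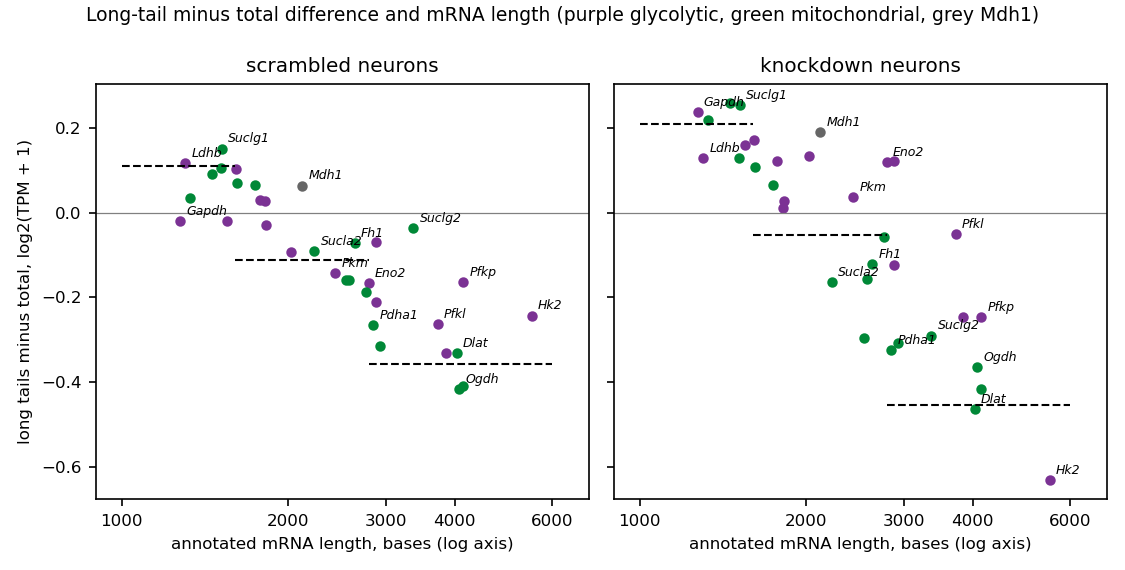
Long-tail minus total difference, log2(TPM + 1), against annotated mRNA length in bases (log axis) for the 34 members in scrambled (left) and knockdown (right) neurons; dashed lines are the medians of all tested genes in the classes up to 1600, 1601 to 2800 and from 2801 bases on. Members run from high to low with length in both panels (rank correlation −0.87 and −0.85), and the all-gene medians do so too.

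Finally, the knockdown difference in long tails was compared with that in total RNA, which is the interaction and asks whether knockdown moved an mRNA's long-tail share. No member and no gene of the 13681 was called by limma (0%), and at an unadjusted p under 0.05 there were 0 members, against 0.395% of genes higher and 0.482% lower. The glycolytic median was 0.09 and the mitochondrial median 0.00, against −0.02 for all genes, and 13 of 16 glycolytic enzymes were above 0. That count was 15 of 16 under median centring and 6 of 16 under quantile normalization, so its direction turned with the scaling. The members above 0 with the smallest p were Eno2 at 0.29 (SE 0.25) and Pfkl at 0.21 (SE 0.221), and those below 0 with the smallest p were Hk2 at −0.39 (SE 0.393) and Dlat at −0.13 (SE 0.192). All of these had a limma adjusted p of 1. For Pdha1 the interaction was −0.06 (limma adjusted p = 1), and with 1 library left out it ran from −0.23 to 0.11. Of the related genes, Pgam2 (0.41), Sdhb (0.28) and Pgm2l1 (−0.56) had the smallest p, and none was called. Pgam2 was listed at 7 to 9 TPM, so its value rests on whole-number steps of 1 TPM.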

How the data were processed

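Values per library were TPM, a score of relative abundance that the authors deposited rounded to whole numbers; the column sums ran from 999689 to 999809. The tools named in the submitters' processing notes are TopHat2, RSEM, CASAVA, DESeq2 and DESeq, with the build mm10, each without role or version. Read depth is unknown. The authors' 2 deposited tables give, per the file headers, log2 fold changes, p-values and adjusted p-values, and a mean normalized signal.

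Genes averaging 1 TPM or more were taken as log2(TPM + 1), which understates differences of low genes. A limma model (version 3.58.1, R 4.3.3, eBayes with trend) with 4 group means over 8 libraries gave 5 2-sided contrasts, adjusted by Benjamini-Hochberg over 13681 genes. It was tested on simulated data, which does not show its power on these libraries, where Cnot7 itself was not called. With 2 libraries against 2, an exact test cannot go below 0.333. The members and lists were chosen with earlier results of these data known. Values in every library are given for members in the authors' tables, for the 2 smallest p-values per direction in 4 contrasts, the 2 most abundant per set and 4 isozyme sets, with up to 3 related genes per contrast, of which 1 is not reported here. Gene positions, transcripts and 3′ ends came from GENCODE M21 (mm10); all 34 members matched. Alternatives covered the pseudocount, filter, scaling, trend, replicate block and left-out libraries.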

Additional observations from a re-analysis of the deposited data

How the results depend on the processing

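The count of members called was 0 in all 5 comparisons. It stayed 0 under every alternative except 1 added after seeing the data. That alternative kept only the 6810 genes of at least 20 TPM and used a replicate block. There 1 member, Pdha1, was called in total RNA and in long tails, among 118 and 297 of the 6810 genes. With the replicate block alone 0 members and 0 genes were called, and Pdha1 had a limma adjusted p of 0.299 in total RNA and 0.304 in long tails. The labels do not state that library numbers pair the samples. Deviations of same-numbered libraries correlated at −0.12 (knockdown total with knockdown long tails) to 0.76. Over the 13681 genes, pairing the knockdown long tails the other way also gave 0 calls. Since the block gave 0 calls there already, this cannot tell whether the pairing matters. The other pairing was not run with the filter at 20 TPM. Over all genes the calls depended on the setting: without a filter 43, 54, 33 and 56 genes were called in the first 4 comparisons, with only the libraries compared 50, 83, 87 and 97, and 2125 in long tails minus total of knockdown neurons without knockdown long-tail library 1.

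The glycolytic minus mitochondrial median difference changed with the libraries left out, from −0.0973 to 0.0934 in the knockdown comparison of total RNA, 0.0128 to 0.157 in that of long tails, −0.191 to 0.177 in long tails minus total of scrambled and 0.11 to 0.234 in knockdown neurons; under quantile normalization the latter were −0.0942 and 0.0165. Pdha1 changed sign in long tails minus total of knockdown neurons under median centring (0.00663), and in the interaction under median centring (0.0288) and between −0.23 and 0.111 with 1 library left out (0.00447 without scrambled total library 1, 0.111 without scrambled long-tail library 2, 0.0677 without knockdown long-tail library 1). The cause was not tested. The rank correlation with mRNA length was −0.70 under quantile normalization in scrambled neurons and ran from −0.874 to −0.677 there and from −0.918 to −0.547 in knockdown neurons with 1 library left out. Whole-number TPM limits precision at the level of Hk2, Pgam2 and Pfkfb4.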

Other observations

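Some mitochondrial enzymes differed between the libraries numbered 1 and 2 in the same direction in all 4 groups. Dld, Idh2, Sucla2, Suclg2 and Pcx were higher in library 2 each time, and Ogdh was lower each time, while 0 of 16 glycolytic enzymes did either. Over all genes tested 9.94% were higher and 8.6% lower in library 2 in all 4 groups. Idh2, the NADP-dependent isocitrate dehydrogenase, was at 143 and 194 TPM in scrambled total, 131 and 151 in knockdown total, 147 and 207 in scrambled long tails, and 111 and 195 in knockdown long tails. Its gap between the libraries of a group exceeded the gap between knockdown and scrambled means in all but total RNA of knockdown neurons. What a library number stands for is not given in the labels, and these values were read after the data were seen.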
